A study of Homo sapiens with 4 samples.

Results

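The genes described here are 35 genes of the Hippo pathway and its output, among 61806 genes counted in 4 RNA sequencing libraries of U118-MG, an established human glioma line. They were chosen by name as parts of the pathway and published targets of YAP and TAZ: 7 genes of the core kinase cassette, 9 upstream regulators and YAP-binding proteins, 8 genes of YAP, TAZ, the TEAD factors and their cofactors, and 11 target genes. The SPNS2 group (2 libraries) was transduced with a lentiviral pCDH vector that expresses SPNS2 from the CMV promoter, an exporter of the signalling lipid sphingosine 1-phosphate. The NC group (2 libraries) received the negative control vector, and both groups were wild type by label and grown in DMEM with serum. Whether a group is 1 transduced pool or a clone, or whether its libraries come from separate cultures, is not given in the sources used here, so p-values measure only the spread between these libraries.

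The Hippo pathway limits growth through a kinase cascade. The kinases STK3 and STK4, known as MST2 and MST1, with the scaffold SAV1 activate LATS1 and LATS2 and their MOB1 cofactors, which phosphorylate YAP and TAZ and keep them in the cytoplasm. YAP or TAZ that reaches the nucleus binds TEAD factors and drives genes of matrix, adhesion and growth, some of which feed back on the cascade. In other cell systems, serum lipids such as sphingosine 1-phosphate are known to act on this cascade.

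SPNS2 itself was counted 7381 and 8224 times in the SPNS2 libraries and 42 and 47 times in the NC libraries. Its log2 fold change was 7.48 (adjusted p = 0.00028 by edgeR). Totals were 31353373 to 34125159 reads assigned to genes per library, and 17853 genes passed the filter on low counts. Among defining markers of glia, GFAP, S100B, AQP4, OLIG2 and SOX2 were all under 1 CPM (library-scaled counts, with TMM factors) in every library, whereas VIM lay between 4041 and 6827 CPM. SLC1A3, a glial glutamate transporter, was called higher, at 20.2 and 17.8 CPM in the SPNS2 libraries against 1.12 and 0.921 CPM in the NC libraries. VIM was also called higher (log2 fold change 0.57), and NES, an intermediate filament protein of the same list, lower (-0.84). Of the mesenchymal, endothelial and neuronal markers, COL1A1 (0.44), PECAM1 (1.07) and SNAP25 (1.87) were called higher and VWF (-2.66) and SYT1 (-2.63) lower by edgeR. COL1A2, FN1 and TAGLN were not called. PECAM1 and VWF were near the threshold (edgeR adjusted p = 0.0465 for each). VWF was also low, at 0.390 and 0.120 CPM in SPNS2 and 1.65 and 1.58 CPM in NC. The summed level of the 5 epithelial markers was 2.57 to 3.03 CPM in SPNS2 and 1.31 to 1.58 CPM in NC. For the 5 immune markers, the sums of 66.5 to 76.7 CPM in SPNS2 and 111 to 130 CPM in NC came nearly all from CD68, a lysosomal protein, while PTPRC, CD3E, CD14 and AIF1 stayed under 1 CPM in every library. The part of these markers in the results below was not tested.

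Of the 35 genes, 33 passed the low-count filter, and 17 of them were called at an edgeR adjusted p under 0.05, 12 higher and 5 lower in the SPNS2 cells. Among all tested genes 23.4% were called, 12.1% higher and 11.3% lower. Target genes were called in both directions: 4 of 10 tested rose and 2 fell. Of the 15 tested genes of the cascade and its upstream regulators, 6 rose and 2 fell, and of the 8 genes of YAP, TAZ, TEAD and cofactors 2 rose and 1 fell. Median log2 fold changes were 0.35 for targets, 0.22 for the cascade and upstream genes and 0.07 for YAP, TAZ, TEAD and cofactors, against -0.01 over all tested genes. In the third set the sign of the median turned when a library was left out, to -0.12 without NC replicate 1 and -0.15 without SPNS2 replicate 2. These are bulk RNA levels, in which a change in the number of cells that express a gene and a change of RNA per cell cannot be told apart.

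**Figure D1:**
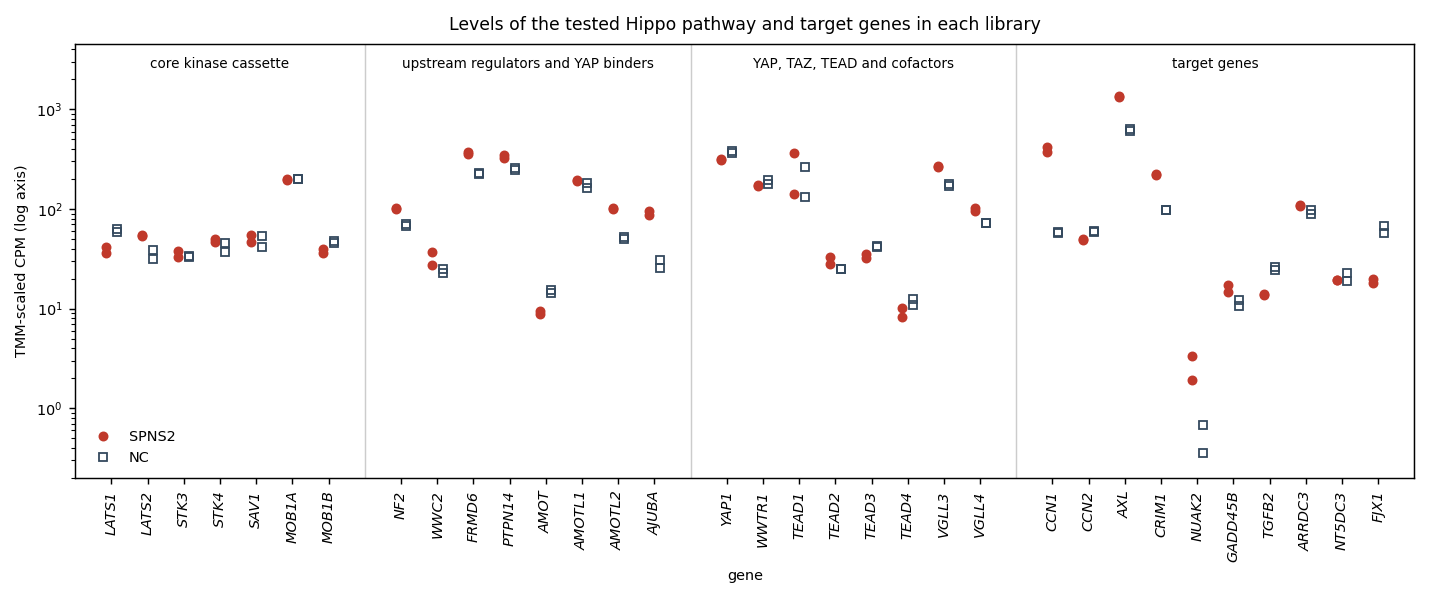
TMM-scaled CPM (log axis) of the 33 tested genes in each of the 4 libraries, by role; filled circles are the SPNS2 libraries and open squares the NC libraries. CCN1, AXL, CRIM1 and AJUBA stand clearly higher and FJX1 clearly lower in SPNS2, whereas the 2 libraries of each group are far apart for TEAD1.

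**Figure D2:**
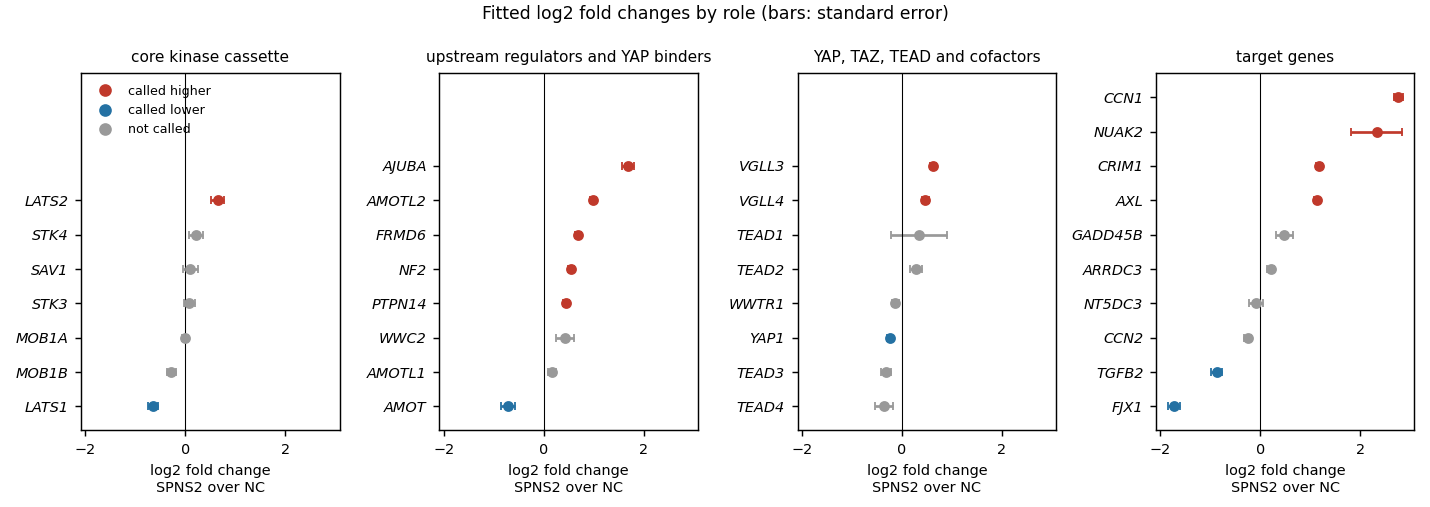
Fitted log2 fold change of SPNS2 over NC for each tested gene, with its standard error as a bar, in 4 panels by role; red points were called higher, blue points lower and grey points not called. Target genes spread from -1.72 for FJX1 to 2.76 for CCN1, a wider range than in the other panels.

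The secreted matricellular protein CCN1 (CYR61), a classical YAP target, had 419 and 370 CPM in the SPNS2 libraries against 58.2 and 58.0 CPM in the NC libraries. The gene lies on chromosome 1 at 85580761 to 85583962 (GRCh38, plus strand). Its log2 fold change of 2.76 (SE 0.084 and adjusted p = 0.00093 by edgeR) lay at percentile 98.0 of the tested genes. CCN2 (CTGF), a protein of the same family and an equally classical target, did not follow: it had 50.6 and 49.0 CPM in SPNS2 and 59.7 and 59.0 CPM in NC. The groups did not overlap for CCN2 and lay in the opposite order to CCN1, with a log2 fold change of -0.25 (SE 0.071 and adjusted p = 0.070 by edgeR). Per kilobase of exon, the ratio of CCN1 to CCN2 was 7.90 and 7.20 in the SPNS2 libraries and 0.928 and 0.937 in the NC libraries. In NC the level of CCN1 per kilobase was thus just below that of CCN2, and in SPNS2 several times above it. CCN2 was called when library totals replaced the TMM factors (log2 fold change -0.31, edgeR adjusted p = 0.045). It lies on 6q, an arm whose median log2 fold change was -0.16. With arm medians removed the value of CCN2 was -0.10 (edgeR adjusted p = 0.40).

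ANKRD1, a muscle ankyrin repeat protein used as a reporter of YAP activity in many cell types, was barely detected. It had 0 counts in both SPNS2 libraries and 6 and 3 counts in the NC libraries, below the filter. The NC level, from 9 counts, was 2.93-fold above a floor of 3 counts over the SPNS2 group. That ratio leaves out the counting error of the NC counts, and the difference was not tested. NUAK2, a kinase of the AMPK family, was also low, at 3.35 and 1.92 CPM (103 and 64 counts) in SPNS2 and 0.686 and 0.357 CPM (22 and 12 counts) in NC. All its SPNS2 values were above the NC values, with a log2 fold change of 2.33 (SE 0.51 and adjusted p = 0.040 by edgeR). That call was lost with any 1 library left out, at an edgeR adjusted p of 0.076 when this was NC replicate 1, 0.126 for NC replicate 2, 0.135 for SPNS2 replicate 1 and 0.064 for SPNS2 replicate 2, as well as with limma-voom (0.057) and with the chromosome arm medians removed (0.052).

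AXL, a receptor tyrosine kinase for GAS6, had 1330 and 1372 CPM in the SPNS2 libraries and 604 and 630 CPM in the NC libraries. The log2 fold change was 1.13 (SE 0.046 and adjusted p = 0.0012 by edgeR). CRIM1, a transmembrane protein with cysteine-rich repeats that binds bone morphogenetic proteins, had 219.7 and 224 CPM in SPNS2 and 97.1 and 98.8 CPM in NC, a log2 fold change of 1.18 (SE 0.056 and adjusted p = 0.0016 by edgeR). For both genes the gap between groups was many times the distance between libraries of a group. CRIM1 lies on 2p, where the median log2 fold change of 451 tested genes was -0.17, and with arm medians removed its value was 1.35 (edgeR adjusted p = 0.00135).

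TGFB2 and FJX1 went the other way. TGFB2, a ligand of the transforming growth factor beta family, had 13.7 and 14.03 CPM in SPNS2 and 26.2 and 24.5 CPM in NC, a log2 fold change of -0.87 (SE 0.11 and adjusted p = 0.011 by edgeR). Its call was lost in each fit with 1 library left out, by a narrow margin: an edgeR adjusted p of 0.059 with NC replicate 1 omitted, 0.051 with NC replicate 2, 0.052 with SPNS2 replicate 1 and 0.051 with SPNS2 replicate 2 omitted. TGFB2 also shares 1371 exon bases with TGFB2-OT1 on the same strand, so the value of TGFB2 is uncertain. FJX1, the human relative of four-jointed, a Golgi kinase that in Drosophila acts on the cadherins Fat and Dachsous, had 19.9 and 18.2 CPM in SPNS2 and 57.6 and 68.3 CPM in NC. Its log2 fold change was -1.72 (SE 0.13 and adjusted p = 0.0034 by edgeR), percentile 5.38 of the tested genes. FJX1 is on 11p, an arm whose median was 0.15, so the fall ran against the arm.

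The other 3 tested targets were not called. GADD45B, a stress response gene, had 17.4 and 14.7 CPM in SPNS2 and 10.7 and 12.3 CPM in NC (edgeR adjusted p = 0.10). ARRDC3, an arrestin-domain adaptor of ubiquitin ligases, had 109 and 108 CPM in SPNS2 and 97.3 and 89.6 CPM in NC (edgeR adjusted p = 0.097). It lies on 5q, an arm with a median of 0.43, and its log2 fold change of 0.21 was -0.22 with arm medians removed. NT5DC3, which has a nucleotidase domain, had 19.5 and 19.6 CPM in SPNS2, inside the 18.8 to 22.6 CPM of NC. Summed over the 11 targets, the level was 2202 and 2191 CPM in SPNS2 and 1031 and 1063 CPM in NC. AXL was the largest part in both groups, and CCN1 was the next largest in SPNS2 only.

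YAP1, which encodes YAP, had 310 and 320 CPM in the SPNS2 libraries and 367 and 382 CPM in the NC libraries. The groups did not overlap, with SPNS2 lower by 0.25 on the log2 scale (log2 fold change -0.25, SE 0.053, edgeR adjusted p = 0.037). YAP1 lies on 11q (chromosome 11, 102110461 to 102233423, GRCh38), where the median log2 fold change of 630 tested genes was -0.39, with 26 higher and 173 lower. Relative to that arm the sign turned, with a log2 fold change of 0.14 and an edgeR adjusted p of 0.14. The call was also lost with NC replicate 1 omitted (edgeR adjusted p = 0.103), likewise NC replicate 2 (0.15), SPNS2 replicate 1 (0.134) or SPNS2 replicate 2 (0.090), and when low-count genes were not removed (0.055). Its paralog WWTR1, which encodes TAZ, had 175 and 168 CPM in SPNS2 and 180 and 196 CPM in NC and was not called (log2 fold change -0.13, edgeR adjusted p = 0.25). Per kilobase of exon, YAP1 exceeded WWTR1 2.36- and 2.54-fold in SPNS2 and 2.72- and 2.61-fold in NC.

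None of the 4 TEAD genes, which encode the DNA-binding partners of YAP and TAZ, was called by edgeR with all 4 libraries or by any of the 12 alternatives, and 1 of them, TEAD3, had an unadjusted edgeR p under 0.05 (0.0211). TEAD1 was the tested member whose libraries lay furthest apart within a group. It had 140 and 364 CPM in SPNS2 replicates 1 and 2 and 133 and 263 CPM in NC replicates 1 and 2, so the groups overlapped and the second library was higher in each. Among the 10031 tested genes that averaged 10 CPM or more, 0.479% had libraries at least as far apart in both groups, and TEAD1 ranged from -0.50 to 0.92 in log2 fold change when a library was left out. Per kilobase of exon, TEAD1 made up 33.4% and 60.0% of the summed TEAD level in the SPNS2 libraries and 32.5% and 47.7% in the NC libraries. TEAD2 had 33.0 and 27.8 CPM in SPNS2 and 25.0 and 25.2 CPM in NC (edgeR adjusted p = 0.18), TEAD3 35.2 and 32.4 CPM against 41.7 and 42.7 CPM in NC (0.074), and TEAD4 10.2 and 8.15 CPM against 10.9 and 12.6 CPM in NC (0.23).

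Both vestigial-like cofactors, which bind TEAD factors in place of YAP, rose. VGLL3 had 263 and 272 CPM in the SPNS2 libraries and 172 and 177 CPM in the NC libraries, a log2 fold change of 0.62 (SE 0.056 and adjusted p = 0.0052 by edgeR). VGLL4, a repressor that competes with YAP for TEAD, had 96.6 and 103 CPM in SPNS2 and 71.7 and 72.6 CPM in NC, a log2 fold change of 0.47 (SE 0.067 and adjusted p = 0.015 by edgeR). VGLL4 lost its call with NC replicate 1 (edgeR adjusted p = 0.075), NC replicate 2 (0.071) or SPNS2 replicate 2 (0.065) omitted. On the opposite strand, ATG7 shares 1596 exon bases with VGLL4 and had 80.8 and 87.6 CPM in SPNS2 against 39.8 and 43.6 CPM in NC, and the strand setting of the counting is not given, so the value of VGLL4 is uncertain.

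In the core cassette the kinases LATS1 and LATS2 moved in opposite directions while the rest did not pass the test. LATS1 had 36.1 and 41.5 CPM in SPNS2 and 59.3 and 62.3 CPM in NC, a log2 fold change of -0.65 (SE 0.10 and adjusted p = 0.018 by edgeR). LATS2, itself a published YAP target, had 55.2 and 53.9 CPM in SPNS2 and 31.4 and 38.5 CPM in NC, a log2 fold change of 0.64 (SE 0.12 and adjusted p = 0.030 by edgeR). The ratio of LATS2 to LATS1 per kilobase of exon was 2.37 and 2.01 in SPNS2 and 0.820 and 0.957 in NC. On this measure LATS2 was above LATS1 in SPNS2 and below it in NC, only slightly so in NC replicate 2. The exon lengths pool all annotated isoforms, and which of them these cells use was not tested. The call of LATS1 was lost with NC replicate 1 (edgeR adjusted p = 0.067), NC replicate 2 (0.078) or SPNS2 replicate 1 (0.0625) omitted, and that of LATS2 with NC replicate 1 (0.075), SPNS2 replicate 1 (0.10) or SPNS2 replicate 2 (0.095) omitted.

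The MST kinases STK3 and STK4 were not called. STK3 had 33.4 and 37.7 CPM in SPNS2 and 33.3 and 33.998 CPM in NC (edgeR adjusted p = 0.63), and STK4 had 50.2 and 46.1 CPM in SPNS2 and 46.0 and 36.9 CPM in NC (0.32). Their scaffold SAV1 had 55.3 and 46.7 CPM in SPNS2 and 41.9 and 53.2 CPM in NC (edgeR adjusted p = 0.69). The LATS cofactor MOB1A had 201 and 197 CPM in SPNS2 and 198 and 202 CPM in NC (log2 fold change -0.01, SE 0.054, edgeR adjusted p = 0.91). Its close paralog MOB1B had 36.5 and 39.9 CPM in SPNS2 and 47.6 and 45.2 CPM in NC (edgeR adjusted p = 0.10), on 4q with an arm median of -0.32, and its log2 fold change was 0.04 with arm medians removed. Reads that match both MOB1 genes could be divided between them in these counts. MOB1B also shares 199 exon bases with DCK on the same strand, and SAV1 shares 840 with ATL1 on the opposite strand, so the values of both are uncertain.

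**Figure D3:**
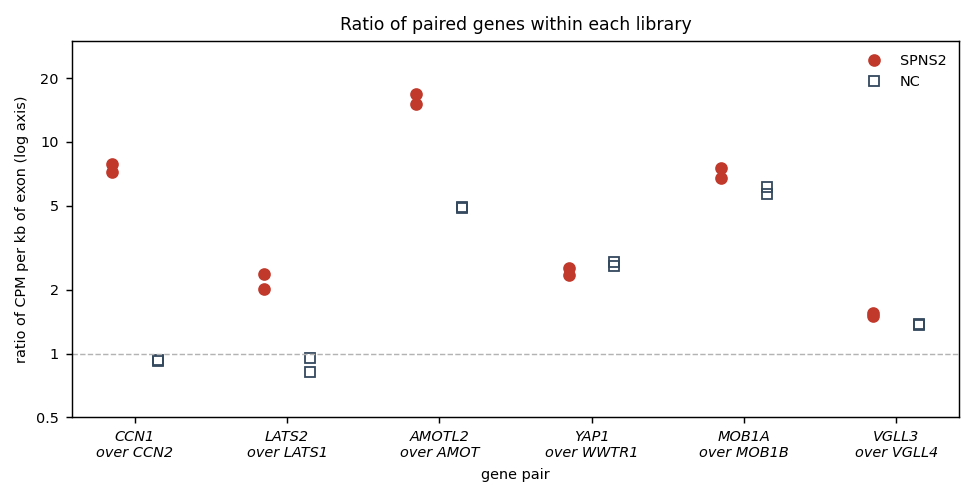
Ratio of the levels of paired genes (CPM per kb of exon, log axis) within each library; filled circles are the SPNS2 libraries, open squares the NC libraries, and the dashed line marks equal levels. The ratio of CCN1 to CCN2 was 7.20 to 7.90 in SPNS2 and 0.928 to 0.937 in NC, and the ratio of LATS2 to LATS1 lay above 1 in SPNS2 and below 1 in NC.

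Among the upstream regulators and YAP-binding proteins, 5 of 8 tested genes rose and 1 fell. Of all tested genes, 12.1% were called higher and 11.3% lower. The median log2 fold change of the 8 genes was 0.50, against -0.01 over all tested genes. AJUBA, a LIM protein that binds and inhibits LATS kinases, had the highest change, with 94.5 and 87.4 CPM in the SPNS2 libraries and 25.8 and 30.6 CPM in the NC libraries. Its log2 fold change was 1.69 (SE 0.11 and adjusted p = 0.0030 by edgeR). NF2, the tumour suppressor merlin that recruits LATS to the membrane, had 99.7 and 103 CPM in SPNS2 and 70.3 and 68.2 CPM in NC, a log2 fold change of 0.55 (SE 0.063 and adjusted p = 0.0092 by edgeR). FRMD6, a relative of the fly protein Expanded that activates the cascade, had 377 and 354 CPM in SPNS2 and 227 and 228 CPM in NC, a log2 fold change of 0.68 (SE 0.057 and adjusted p = 0.0046 by edgeR). Activators and an inhibitor of LATS thus rose together. NF2 was not called without NC replicate 2 (edgeR adjusted p = 0.052).

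The angiomotins, scaffold proteins that bind YAP and hold it outside the nucleus, did not move together. AMOTL2, a published YAP target, had 103 and 101 CPM in SPNS2 and 52.5 and 50.5 CPM in NC, a log2 fold change of 0.99 (SE 0.066 and adjusted p = 0.0030 by edgeR). AMOT, the X-linked member, was lower, at 8.74 and 9.50 CPM in SPNS2 and 15.3 and 14.5 CPM in NC, a log2 fold change of -0.71 (SE 0.14 and adjusted p = 0.029 by edgeR). AMOTL1 had 191 and 197 CPM in SPNS2 and 182 and 162 CPM in NC and was not called (log2 fold change 0.17, edgeR adjusted p = 0.19). AMOTL1 lies on 11q like YAP1, and with arm medians removed it was called at a log2 fold change of 0.57 (edgeR adjusted p = 0.016). The ratio of AMOTL2 to AMOT per kilobase was 16.8 and 15.03 in SPNS2 and 4.86 and 4.95 in NC. The call of AMOT was lost in each fit with 1 library left out, with an edgeR adjusted p of 0.12 for NC replicate 1, 0.10 for NC replicate 2, 0.107 for SPNS2 replicate 1 and 0.086 for SPNS2 replicate 2.

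PTPN14, a phosphatase that binds YAP and is also a published YAP target, had 328 and 352 CPM in SPNS2 and 255 and 245 CPM in NC, a log2 fold change of 0.44 (SE 0.063 and adjusted p = 0.015 by edgeR). This call was lost with NC replicate 1 (edgeR adjusted p = 0.058), NC replicate 2 (0.075) or SPNS2 replicate 2 (0.051) omitted. Of the KIBRA family, which supports LATS activation, WWC1 was nearly silent, with 8 and 8 counts in SPNS2 and 0 and 7 counts in NC, and a difference was not detectable at this depth. WWC2 had 27.5 and 37.2 CPM in SPNS2 and 23.0 and 25.1 CPM in NC and was not called (log2 fold change 0.43, edgeR adjusted p = 0.16). Its arm, 4q, had a median of -0.32. With arm medians removed the log2 fold change of WWC2 was 0.75 (edgeR adjusted p = 0.0545), again not called. CLDN22 shares 2581 exon bases with WWC2 on the opposite strand, and the strand setting of the counting is not given, so the value of WWC2 is uncertain.

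For 28 of the 33 tested members, both SPNS2 values lay on one side of both NC values, above them for 18 and below them for 10. The same held for 66.0% of all tested genes, above for 32.4% and below for 33.6%. Of the 17 called genes, 8 kept their call in all 12 alternatives: FRMD6, AMOTL2, AJUBA, VGLL3, CCN1, AXL, CRIM1 and FJX1.

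**Figure D4:**
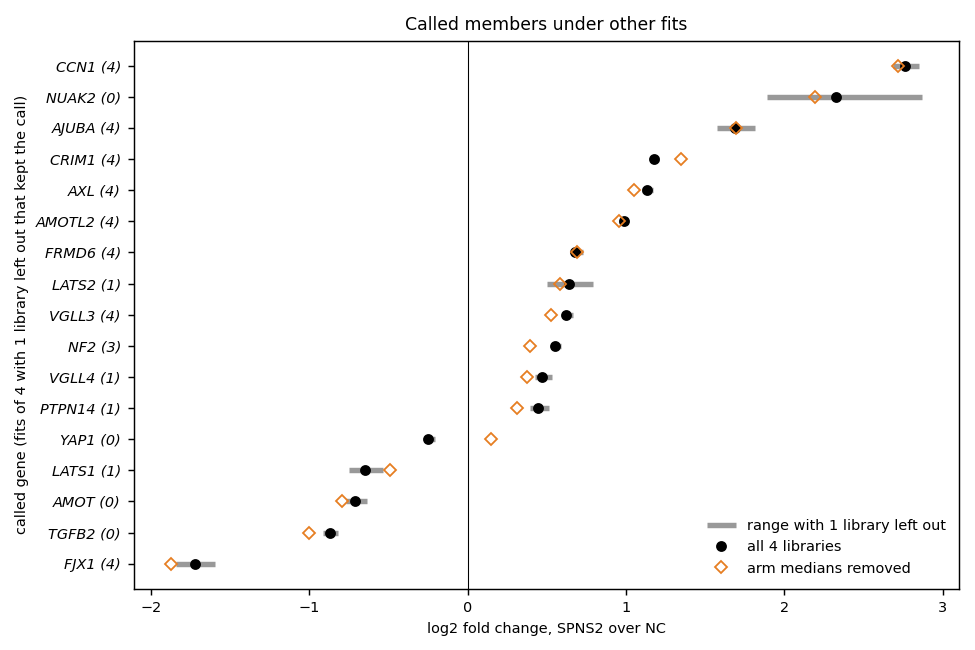
Log2 fold change of SPNS2 over NC for the 17 called genes with all 4 libraries (black points), over the fits with 1 library left out (grey bars, lowest to highest) and with chromosome arm medians removed (orange diamonds); the number beside a gene is how many of the 4 fits with 1 library left out kept its call. With arm medians removed the value of YAP1 changed sign, and the values of the other 16 genes kept theirs.

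TEAD factors recognise the letters GGAATG, which were searched on both strands of RefSeq promoter windows of GRCh38.p14, each with 250 bases before and 50 bases after an annotated start. At least 1 window held the motif for 11 of the 30 members with a window (36.7%) and for 16.7% of all 27305 genes with one. Among members it was found for 6 of 10 that rose, 2 of 5 that fell and 3 of the other 15. CCN1 and CRIM1, which rose, and STK3, TEAD1 and TEAD4 had no window and are not in these counts. A match is only a description of the letters, and members with more windows have more chances of one. Of the 9 target members with a window, 5 (55.6%) held the motif, and targets were chosen as published targets of YAP and TAZ. The share among members therefore cannot be separated from how they were chosen. The 4 windows are printed because their genes behaved differently with the same letters present: AMOTL2 and AJUBA rose, TGFB2 fell, and CCN2 was not called with 3 matches. Capitals mark GGAATG or its reverse complement, and each sequence runs 5′ to 3′ on the strand of the gene. The window of AMOTL2 is chr3:134374398-134374697 (minus strand), that of AJUBA chr14:22976793-22977092 (minus strand), that of TGFB2 chr1:218345086-218345385 (plus strand) and that of CCN2 chr6:131951323-131951622 (minus strand). AMOTL2 and AJUBA each have another window, further upstream, without a match. Their printed windows are thus at downstream starts, and which start these cells use was not tested.
AMOTL2: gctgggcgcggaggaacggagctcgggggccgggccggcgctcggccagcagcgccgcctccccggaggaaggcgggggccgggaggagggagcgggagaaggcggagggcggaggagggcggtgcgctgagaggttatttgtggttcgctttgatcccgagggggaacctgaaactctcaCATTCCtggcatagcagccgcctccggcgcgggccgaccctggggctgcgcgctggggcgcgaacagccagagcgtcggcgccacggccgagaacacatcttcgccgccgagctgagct
AJUBA: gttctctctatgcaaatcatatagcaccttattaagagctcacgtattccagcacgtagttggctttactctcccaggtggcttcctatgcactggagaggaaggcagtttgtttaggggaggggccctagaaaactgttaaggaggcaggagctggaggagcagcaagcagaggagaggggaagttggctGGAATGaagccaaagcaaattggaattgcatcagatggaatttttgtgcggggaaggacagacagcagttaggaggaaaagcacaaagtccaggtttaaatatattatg
TGFB2: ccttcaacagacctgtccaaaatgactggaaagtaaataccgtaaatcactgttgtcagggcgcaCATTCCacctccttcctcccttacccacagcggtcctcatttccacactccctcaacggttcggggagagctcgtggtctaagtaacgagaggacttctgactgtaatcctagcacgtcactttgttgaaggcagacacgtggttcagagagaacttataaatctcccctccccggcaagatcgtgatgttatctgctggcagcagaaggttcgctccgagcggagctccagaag
CCN2: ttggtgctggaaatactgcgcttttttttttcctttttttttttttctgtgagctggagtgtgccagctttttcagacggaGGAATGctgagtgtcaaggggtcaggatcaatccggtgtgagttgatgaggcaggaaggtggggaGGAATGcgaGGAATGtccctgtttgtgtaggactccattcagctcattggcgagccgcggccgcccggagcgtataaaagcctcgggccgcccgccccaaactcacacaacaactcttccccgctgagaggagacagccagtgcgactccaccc
The 3 matches of CCN2 began at bases -169, -104 and -95 from the start, all in the direction of the gene, whereas the matches of AMOTL2 and TGFB2 were on the opposite strand, at -69 and -185, and that of AJUBA on the gene's strand at -59.

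Genes next to the pathway were read from 5 further lists. Beside their counts stand the shares of all tested genes, 12.1% called higher and 11.3% lower. No list was tested as a set. In the upstream kinases that act on LATS beside STK3 and STK4, 2 of 10 tested rose and 1 fell. TNIK had 11.6 and 15.2 CPM in SPNS2 and 1.22 and 1.16 CPM in NC (log2 fold change 3.49, SE 0.23, edgeR adjusted p = 0.0029). MAP4K4 had 1578 and 1608 CPM in SPNS2 and 1149 and 1164 CPM in NC (log2 fold change 0.46, SE 0.037, edgeR adjusted p = 0.0043). MAP4K3 had 28.2 and 20.6 CPM in SPNS2 and 40.2 and 41.4 CPM in NC (edgeR adjusted p = 0.047), with the highest edgeR adjusted p of 0.147 when a library was left out. The median of the list was -0.01. MAP4K3 was not called when NC replicate 1, NC replicate 2 or SPNS2 replicate 2 was omitted, with the replicate block, without the low-count filter or with arm medians removed (edgeR adjusted p = 0.0942 with arm medians removed). Lower calls of the list numbered 3 with library totals and 2 with DESeq2.

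Of the STRIPAK complex, a phosphatase that opposes STK3 and STK4, calls were higher for 4 of 15 tested genes and lower for 1, and the median was -0.04. The scaffold STRN had 84.6 and 92.0 CPM in SPNS2 and 68.7 and 64.7 CPM in NC, PDCD10 had 69.9 and 64.8 CPM in SPNS2 and 49.2 and 50.05 CPM in NC, and the catalytic subunit PPP2CA had 183 and 221 CPM in SPNS2 and 113 and 123 CPM in NC. PPP2CA lies on 5q, and its edgeR adjusted p of 0.016 was 0.115 with arm medians removed. CTTNBP2, a cortactin-binding protein, fell to 34.5 and 35.9 CPM in SPNS2, against 62.2 and 62.6 CPM in NC (edgeR adjusted p = 0.0054). PPP2CA was not called without NC replicate 1 or NC replicate 2 (highest edgeR adjusted p = 0.0742). PDCD10 and STRN were not called in any fit with 1 library left out, at an edgeR adjusted p of 0.060 to 0.101 for PDCD10 and 0.0608 to 0.125 for STRN. The 4 higher calls of the list became 0 without NC replicate 1 and 0 without NC replicate 2, 1 without SPNS2 replicate 1, 1 without SPNS2 replicate 2, 1 with the replicate block and 2 with arm medians removed.

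Cell polarity and junction genes that feed the cascade had 8 lower calls among 23 tested, with 3 higher and a median of -0.12. FAT1, a giant cadherin, had 409 and 418 CPM in SPNS2 and 859 and 782 CPM in NC (log2 fold change -0.99, SE 0.064, edgeR adjusted p = 0.0028). Its partner family member DCHS1 had 1.53 and 2.34 CPM in SPNS2 and 19.4 and 12.8 CPM in NC (log2 fold change -3.05, SE 0.34, edgeR adjusted p = 0.0086). RASSF2, a protein that binds STK3 and STK4, had 1.07 and 1.86 CPM in SPNS2 and 48.4 and 45.8 CPM in NC (log2 fold change -5.00, SE 0.29, edgeR adjusted p = 0.0023). DLG1, a polarity scaffold, rose instead, to 282 and 272 CPM in SPNS2 against 170 and 162 CPM in NC (edgeR adjusted p = 0.0042). FAT1 lies on 4q, with an arm median of -0.32, and its log2 fold change was -0.67 with arm medians removed (edgeR adjusted p = 0.00667). The 8 lower calls of the list became 3 with either NC replicate 1 or NC replicate 2 omitted, 5 with SPNS2 replicate 1 omitted, 4 with SPNS2 replicate 2 omitted, 4 with the replicate block and 5 with arm medians removed. The 3 higher calls became 1 without NC replicate 1, 1 without SPNS2 replicate 2 and 2 with either other library omitted.

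Of the nuclear partners and regulators of YAP, 2 of 17 tested genes rose and 0 fell by edgeR. Of all tested genes, 12.1% were called higher and 11.3% lower. The median of the list was 0.07. NEDD4, a ubiquitin ligase, had 235 and 263 CPM in SPNS2 and 127 and 118.4 CPM in NC (log2 fold change 1.02, SE 0.084, edgeR adjusted p = 0.0043). YWHAZ, a 14-3-3 protein, had 1643 and 1708 CPM in SPNS2 and 1466 and 1399 CPM in NC (log2 fold change 0.23, SE 0.046, edgeR adjusted p = 0.033). YWHAZ was not called when NC replicate 1, NC replicate 2 or SPNS2 replicate 2 was omitted, with edgeR adjusted p up to 0.127, nor with library totals, the replicate block or arm medians removed. The 2 higher calls of the list became 1 with library totals and with the replicate block, and 3 with DESeq2 and with arm medians removed. In some fits with 1 library left out the calls of the list also changed. Among 30 tested genes of the list of other published YAP and TAZ targets, 9 rose and 7 fell, with a median of 0.30. DESeq2 called 12 of them higher and 8 lower. With any 1 of the 4 libraries left out, 8 or 9 were called higher and 4 lower. THBS1 and F3 had the smallest p of those that rose, with log2 fold changes of 3.98 (SE 0.049 and adjusted p = 0.00028 by edgeR) and 3.41 (SE 0.095, edgeR adjusted p = 0.00087). IGFBP3 and EREG had the smallest p of those that fell. EREG, an EGF receptor ligand, had 42.4 and 45.2 CPM in SPNS2 and 247 and 228 CPM in NC (log2 fold change -2.44, SE 0.078, edgeR adjusted p = 0.00093), and IGFBP3 had a log2 fold change of -6.01 (SE 0.099 and adjusted p = 0.00040 by edgeR). Calls in both directions were found in this list (9 higher and 7 lower of 30). The targets described above also had both (4 higher and 2 lower of 10 tested). Of all tested genes, 12.1% were called higher and 11.3% lower.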

How the data were processed

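RNA sequencing measured 2 SPNS2 and 2 NC libraries of U118-MG cells. The authors deposited raw counts per Ensembl gene, not normalized. The submitters' processing notes name hg38 as the build, and list featureCounts 0.3, HISAT2 2.2.1 and Trim Galore 0.6.9 as tools. Which annotation, strand setting and rule for reads with several matches were used is not given in the sources used here. The table held 61806 genes, and 1 row of annotation text without counts was left out. Positions, exon lengths and overlaps came from GENCODE release 29 on GRCh38, the assembly of hg38, which held 17382 of the tested genes and all 35 members.

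Genes were kept by filterByExpr (minimum count 10, minimum total 15), which left 17853. SPNS2 was compared with NC in edgeR 4.0.16 (R 4.3.3) by its quasi-likelihood F-test, with TMM-scaled counts (CPM) and a single term for the group, and p-values were adjusted by Benjamini-Hochberg across the 17853 genes. The standard error is the absolute log2 fold change divided by the square root of F, an approximation. It is not given for SPNS2, where it fell below the counting error of the few NC counts. No set test was run: sets are described by counts and medians. The 12 alternatives were DESeq2 1.42.0, limma-voom (limma 3.58.1), RLE factors, library totals, omission of each library in turn, a block for the replicate number, keeping all genes, keeping those that average 1 CPM, and removal of chromosome arm medians, with arms divided at approximate centromeres. Every member was named, with up to 4 called genes of smallest p per further list. The members and lists were chosen with earlier results of these data known.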

Additional observations from a re-analysis of the deposited data

How the results depend on the processing

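Of the 17 called members, 17 kept their call with RLE factors, library totals only, a minimum mean of 1 CPM and DESeq2, 16 with limma-voom and without the low-count filter, 15 with arm medians removed, 13 with the replicate block and 9 to 11 with a library left out. No called member changed sign except YAP1, at 0.14 with arm medians removed. Fits with a library left out called 950 to 1093 genes higher and 762 to 1051 lower over all genes, against 2161 and 2010 with all libraries. Over the same fits, 4 or 5 cascade and upstream members were higher and 0 or 1 lower, 1 or 2 YAP, TEAD and cofactor members higher and 0 lower, and 3 targets higher and 1 lower. Median log2 fold changes over these fits ranged from 0.21 to 0.36 for the cascade and upstream members, from -0.15 to 0.11 for YAP, TEAD and cofactor members (-0.12 without NC replicate 1, -0.15 without SPNS2 replicate 2) and from 0.30 to 0.41 for targets. With the replicate block, the counts were 1039 higher and 937 lower over all genes, 1 cascade or upstream member lower and 0 YAP, TEAD and cofactor members lower. The block took the calls of LATS2 (edgeR adjusted p = 0.066), PTPN14 (0.053), AMOT (0.080) and YAP1 (0.083). Same-numbered libraries did not deviate together (correlation -0.078 over tested genes), and the labels give no shared batch, so the numbers were not taken as pairs. YAP, TEAD and cofactor members called lower also numbered 0 without the low-count filter and with arm medians removed. Arm removal gave medians of 0.31 for cascade and upstream members and 0.27 for targets, and library totals gave 0.29 for targets. The causes of these shifts were not tested. Depth limits ANKRD1, WWC1 and NUAK2, whose counts were between 0 and 103 per library.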
